A study of Mus musculus with 4 samples.

Results

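Among peritoneal leukocytes, one group of B-1 cells was picked out by its antigen receptor: the heavy chain V gene IGHV12-3 paired with the light chain V gene IGKV4-91. A barcode, the tag that a droplet gives to the RNA of its cell, was a member when the receptor library held exactly 1 productive heavy contig and exactly 1 productive light contig for it and these were the V genes. By this rule 414 of 9761 paired barcodes were members, 221 of 6536 in the CD library and 193 of 3225 in the HFD library. The rule used no expression value, diet or clone size. It needs 1 light contig, and barcodes with a second light contig are therefore described apart.

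The cells came from peritoneal lavage of wild-type (WT) mice and were sorted for the leukocyte surface protein CD45. CD mice received chow and HFD mice a high-fat diet for 3 months, starting at 4 weeks of age. For each diet 1 expression library and 1 receptor library were sequenced, and neither the number of mice nor any pooling is given. A treatment note in the labels puts both groups on the high-fat diet, whereas the series design names chow for CD, and the groups follow the design and the sample titles. Diet, mice and library cannot be told apart, no test between diets was possible, and every interval is a 95% interval of counting error only.

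B-1 cells are self-renewing, innate-like B cells of the body cavities that secrete natural IgM. A known portion of them binds phosphatidylcholine, a membrane lipid of bacteria and of aged cells, through a few recurrent receptors. The best studied are IGHV11-2 with IGKV14-126 and IGHV12-3 with IGKV4-91 (in older names VH11/Vk9 and VH12/Vk4). Known VH12 receptors of this kind carry a heavy chain CDR3, the loop made where V, D and J segments join, of fixed length with glycine at the fourth position, and B cells whose VH12 loop is built otherwise are largely lost during development. Pou2af2 encodes a coactivator of POU2F transcription factors, best known from tuft cells with POU2F3. Zcwpw1 encodes a histone reader best known from meiotic recombination.

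The heavy CDR3 sequences of the leading clonotypes are shown because the loop is the part of the receptor that the rule did not fix. Barcodes form a clonotype when both chains are identical in V gene, in J gene and in the nucleotides of CDR3. Clonotypes are numbered by size within a diet. All are written 5′ to 3′ from the codon of the conserved cysteine to that of the conserved tryptophan. Capitals mark the codon at the fourth position of the loop.
CD clonotype 1, 66 barcodes, IGHJ1: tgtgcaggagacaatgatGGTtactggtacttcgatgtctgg
CD clonotype 2, 23 barcodes, IGHJ1: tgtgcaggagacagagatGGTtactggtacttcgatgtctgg
CD clonotype 4, 23 barcodes, IGHJ1: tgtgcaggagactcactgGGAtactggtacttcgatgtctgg
CD clonotype 7, 9 barcodes, IGHJ2: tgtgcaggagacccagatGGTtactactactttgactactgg
HFD clonotypes 1 and 3, 44 and 23 barcodes, IGHJ1: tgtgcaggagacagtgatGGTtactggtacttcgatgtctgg
HFD clonotype 5, 17 barcodes, IGHJ1: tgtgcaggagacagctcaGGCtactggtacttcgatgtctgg
CD clonotype 3 and HFD clonotypes 2 and 4, the heavy sequence with most barcodes: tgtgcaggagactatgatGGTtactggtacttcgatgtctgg
HFD, loop of 11, 3 barcodes: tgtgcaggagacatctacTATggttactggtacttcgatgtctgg
IGHV11-2, most common, for comparison: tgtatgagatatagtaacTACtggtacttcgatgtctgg

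The light CDR3 sequences are shown because they differed at the V-J junction alone among the leading clonotypes. Capitals mark the codon at that junction, the only codon at which their translations differ.
CD clonotypes 1 and 4, IGKJ5: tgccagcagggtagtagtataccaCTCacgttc
CD clonotype 3 and HFD clonotype 5, IGKJ5: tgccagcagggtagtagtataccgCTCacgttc
CD clonotype 2 and HFD clonotypes 3 and 4, IGKJ2: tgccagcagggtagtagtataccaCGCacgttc
HFD clonotype 1 and CD clonotype 7, IGKJ2: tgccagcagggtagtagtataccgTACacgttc
HFD clonotype 2, IGKJ4: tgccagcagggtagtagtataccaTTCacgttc
CD clonotype 5, IGKJ1: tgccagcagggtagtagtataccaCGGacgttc

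In the expression libraries most members lay on the side of B-1 markers. Of the members, 193 of the CD library (87.3%) and 178 of the HFD library (92.2%) had an expression profile that passed the filter. Those profiles held 1432426 and 1648782 UMIs (counts of single RNA molecules), with a median of 5908 and 8393 per barcode. A barcode was placed on the B-1 side when over 50% of its UMIs from fixed lists of B-1 and B-2 markers were B-1 markers. That held for 96.4% of the CD members (186 of 193, exact interval 92.7 to 98.5) and 98.3% of the HFD members (175 of 178, 95.2 to 99.7), and 16 and 6 of them lay within 1 UMI of the dividing line. Among IGHV11-2/IGKV14-126 barcodes the shares were 88.1% and 93.9%, and among paired barcodes with neither receptor 40.5% and 44.7%.

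Markers of other cells were also present in these droplets. Macrophage markers summed to 2187 counts per 1000000 UMIs (CPM) in CD members and 2702 CPM in HFD members, with all 9 genes of the list detected. In barcodes with macrophage markers and no receptor the same sums were 63016 and 49974 CPM. T cell markers gave 111 and 33.4 CPM. In the granulocyte and mast cell list, all 4 genes were at 0 in CD and only S100a8 was detected in HFD. Most members (75.6% in CD and 86.5% in HFD) held at least 3 UMIs of another cell type, and 11 CD and 4 HFD members held at least 50. These barcodes return below wherever they carried a gene's value. The receptor libraries shared 8 paired barcodes, none of them a member in both.

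IGHV12-3/IGKV4-91 made up a larger share of receptors in the HFD library. It was 3.38% (2.96 to 3.85) of paired barcodes in CD and 5.98% (5.19 to 6.86) in HFD, a difference of 2.60 points (Newcombe interval 1.71 to 3.57). The other phosphatidylcholine receptor, IGHV11-2/IGKV14-126, was 6.55% and 10.1%, a difference of 3.59 points (2.42 to 4.82). IGHV12-3/IGKV4-91 was the second most frequent V pair in each library, out of 1878 pairs seen in CD and 1305 in HFD. Counted by clonotypes, members were 0.637% of CD and 1.82% of HFD clonotypes.

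The V genes were closely tied to each other. Of IGHV12-3 barcodes, 87.7% in CD and 83.9% in HFD carried IGKV4-91, and of IGKV4-91 barcodes 87.0% and 87.7% carried IGHV12-3. Outside IGHV12-3, IGKV4-91 was found in 0.525% and 0.902% of paired barcodes. The IGHV12-3 barcodes with another light V gene numbered 31 in CD and 37 in HFD, and the most frequent partner was IGKV4-57-1, in 13 and 18 of them. The heavy loop of 10 residues with glycine at the fourth position was present in 22 of those 31 and 27 of those 37 barcodes.

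The heavy loop had a nearly constant length and was most variable at 2 positions. Its length counts the residues after the first 3 and before the last of the CDR3. All 221 CD members and 189 of 193 HFD members (97.9%) had a loop of 10 with glycine at the fourth position, against 3.34% and 3.07% of other paired barcodes and 0 of the 428 CD and 327 HFD IGHV11-2/IGKV14-126 barcodes, which allows a share of up to 0.701% and 0.917%. The remaining 4 HFD members had a loop of 11, and the sequence of 3 of them is printed above with the same codon in capitals. Among the 51 distinct heavy sequences with a loop of 10, aspartate stood at the first position in 51 and glycine at the fourth in 51. The second position held 13 different residues, arginine being the most frequent in 18 sequences, and the third held 9, with aspartate in 21. Tyrosine followed the glycine in 49 of the 51 sequences. The capital triplets above differ in their last base (GGT, GGA, GGC), so the same glycine was encoded by different codons.

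Heavy J gene use was narrow in the members, as it was in IGHV11-2/IGKV14-126. IGHJ1 was used by 84.6% of CD members and 86.5% of HFD members, against 21.3% and 28.4% of other paired barcodes and 428 of 428 CD and 327 of 327 HFD barcodes with IGHV11-2/IGKV14-126. IGHJ4, in 23.8% and 23.6% of other paired barcodes, was in 0 of the 221 CD and 193 HFD members, which allows a share of up to 1.36% and 1.55%, and it was likewise in 0 of the IGHV11-2/IGKV14-126 barcodes, which allows up to 0.701% and 0.917%. Counted once per clonotype, IGHJ1 was in 68.0% of CD and 74.4% of HFD clonotypes. Every member had an IGHM heavy contig, the constant gene of IgM, compared with 99.8% (427 of 428) and 100% (327 of 327) of IGHV11-2/IGKV14-126 barcodes and 92.9% and 95.1% of other paired barcodes.

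The light J genes differed between the libraries, and by less when each clonotype was counted once. IGKJ5 was in 65.6% of CD members and 22.3% of HFD members, a difference of -43.3 points (-51.3 to -34.2). IGKJ2 went the other way, 16.7% in CD and 53.4% in HFD, as did IGKJ4, 10.4% and 24.4%. IGKJ1 was found in the 16 barcodes of CD clonotype 5 and in 0 of 193 HFD members. Counted once per clonotype, IGKJ5 was in 56.0% of CD and 46.2% of HFD clonotypes. When barcodes with a second light contig were admitted, IGKJ5 was in 53.2% of the HFD members.

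A small number of clonotypes made up most of the population. CD members fell into 25 clonotypes and HFD members into 39, of which 5 and 22 were seen in 1 barcode. In each library 5 clonotypes had 10 or more barcodes, and these held 68.3% of the CD and 68.4% of the HFD members. The largest was 29.9% of CD members (23.9 to 36.4) and 22.8% of HFD members (17.1 to 29.4). At an equal 193 barcodes, 24.3 clonotypes were expected in CD against 39 in HFD. Whether barcodes of 1 clonotype descend from 1 cell was not tested. The intervals of shares and of their differences count every barcode as independent. They leave out the spread between clonotypes and are too narrow where a few clonotypes hold most barcodes.

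**Figure D1:**
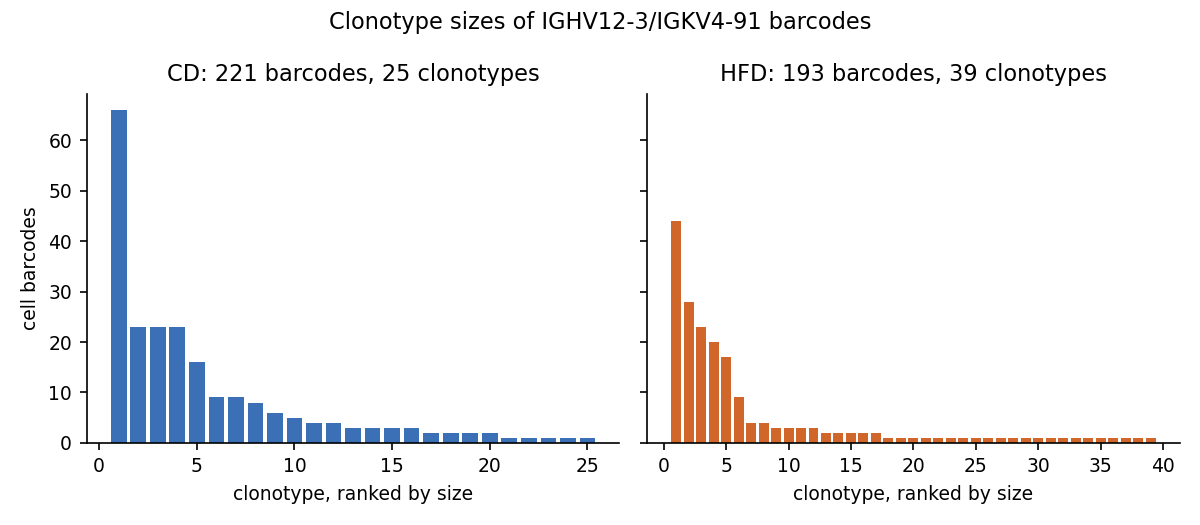
Number of barcodes in each IGHV12-3/IGKV4-91 clonotype, in order of size, for the CD and the HFD library. The CD library has 25 clonotypes led by one of 66 barcodes, and the HFD library has 39 led by one of 44, with a longer tail of clonotypes seen once.

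Clonotypes and heavy sequences were mostly seen in 1 library, while most light sequences were seen in both. Of 63 clonotypes in all, 1 was in both libraries, with 3 CD and 28 HFD barcodes (HFD clonotype 2 above). IGHV11-2/IGKV14-126 had 17 CD and 24 HFD clonotypes, of which 6 were in both. By chain, 3 of the 53 heavy sequences occurred in both libraries, in 32 CD and 58 HFD barcodes. Only 10 light sequences were seen, and the 6 found in both libraries covered 204 of 221 CD and 187 of 193 HFD members. The most frequent heavy sequence, with tyrosine and aspartate at the variable positions, was in 79 members, 26 of CD and 53 of HFD, joined to 3 different light J genes.

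The V regions carried no base differences. From framework 1 to framework 3 of both chains, 549 bases per barcode, all 414 members matched the most common sequence of their V gene, which is 0 differences in 227286 bases and allows up to 0.0132 per 1000 bases. The IGHV11-2/IGKV14-126 barcodes likewise had none. Of other IGHM barcodes, 87.4% in CD and 97.4% in HFD had an unmutated heavy V region, and of IGHG barcodes 26.9% and 37.0%. The reference was the most common sequence in these libraries and not a germline assembly, and any difference carried by all barcodes would not be seen. The CDR1 and CDR2 stretches below, shown because they were identical in 414 of 414 members, are the remaining antigen loops of the receptor. Capitals are not used in them.
IGHV12-3 CDR1: ggtttccccatcaccagtggttac
IGHV12-3 CDR2: actcatagtggggaa
IGKV4-91 CDR1: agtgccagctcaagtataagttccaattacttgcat
IGKV4-91 CDR2: aggacatccaatctggcttct

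Many IGHV12-3 barcodes held a second light contig and so fell outside the rule. Among barcodes with 1 IGHV12-3 heavy contig, 28.6% in CD (102 of 357, 23.9 to 33.6) and 39.1% in HFD (148 of 379, 34.1 to 44.2) had 2 light contigs. The shares were 8.30% and 13.2% with IGHV11-2 and 9.29% and 8.48% with any other heavy V gene. In 102 CD and 147 HFD barcodes one of the light contigs was IGKV4-91. The other was a lambda chain in 76 and 132 of these, and IGLV1 in 61 and 132. All were IGHM and all had the heavy loop of 10 with glycine at the fourth position.

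Most of these barcodes belonged to the largest receptor combination of their library. It had 59 barcodes in CD (57.8% of the dual barcodes) and 131 in HFD. Its heavy CDR3 was the most frequent member sequence above, and the lambda CDR3 was identical in both libraries. Its kappa CDR3 differed by G24A, from CD to HFD, counted from the first base of the CDR3, and position 24 is in capitals here. The same lambda CDR3 was also in 1 HFD dual barcode with another heavy and kappa sequence. The sequences are shown because the heavy and lambda CDR3 recurred base for base in both libraries.
Kappa in CD: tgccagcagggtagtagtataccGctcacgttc
Lambda in CD and HFD: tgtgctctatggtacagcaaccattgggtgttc

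CD clonotype 3, with 23 members, had the same heavy and kappa sequences as the CD dual combination, and no HFD member had those of the HFD combination. Its Iglv1 RNA was 25.8 CPM (4 UMIs). In the dual combination Iglv1 was at 9273 CPM in CD and 10081 CPM in HFD. Over all members the median was 0 Iglv1 UMIs per barcode, and 1 CD and 4 HFD members had 10 or more. Members and dual barcodes were also counted together. The heavy and kappa sequences of each library's own dual combination then made up 25.4% of 323 in CD and 38.5% of 340 in HFD. These are different sets, since the kappa sequences differ by the substitution above.

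Pou2af2 and Zcwpw1 RNA was higher in members than in IGHV11-2/IGKV14-126 barcodes and in barcodes with neither receptor, in both libraries. Both genes were known as markers of these cells from earlier results of these data, and their levels are given as a description. Pou2af2 was at 276 CPM (250 to 305) in CD and 309 CPM (283 to 337) in HFD, against 85.2 and 127 CPM in IGHV11-2/IGKV14-126 barcodes and 24.8 and 43.7 CPM with neither receptor. Zcwpw1 was at 639 CPM (598 to 682) and 378 CPM (349 to 409), against 256 and 220 CPM and 23.5 and 48.4 CPM. Barcodes with macrophage markers and no receptor, which should lack both genes, had 1.49 and 0.460 CPM of Pou2af2 and 2.23 and 2.76 CPM of Zcwpw1. The order member, IGHV11-2/IGKV14-126, neither was the same for both genes in both libraries, with intervals that did not overlap.

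The dual barcodes had levels near those of the members, with Pou2af2 at 321 and 360 CPM and Zcwpw1 at 557 and 455 CPM. Barcodes that shared 1 chain with the members were mixed. With IGHV12-3 and another light V gene, Pou2af2 was at 58.8 CPM in CD and 260 CPM in HFD, and Zcwpw1 at 147 and 306 CPM. With IGKV4-91 and another heavy V gene, Pou2af2 was at 30.7 and 45.4 CPM, and Zcwpw1 had 0 UMIs in CD (interval up to 28.3 CPM) and 22.7 CPM in HFD. With IGKV4-91 alone, Pou2af2 lay near its level in barcodes with neither receptor, and the point values of Zcwpw1 lay below it. Barcodes that share 1 chain with the members are themselves counted among those with neither receptor. In HFD the intervals with IGHV12-3 alone overlapped those of the members for both genes.

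**Figure D2:**
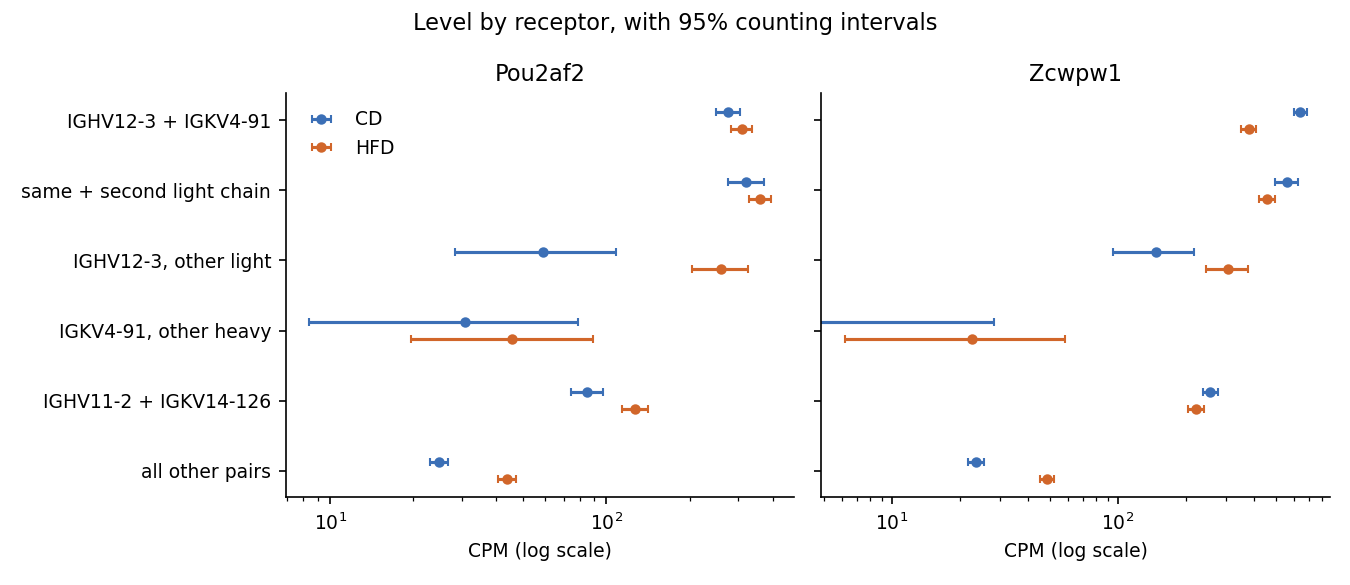
Levels of Pou2af2 and Zcwpw1 in CPM (log axis) by receptor class in the CD and HFD libraries, with 95% intervals of counting error. Members and dual-light barcodes are highest, and Zcwpw1 in CD barcodes with IGKV4-91 and another heavy V gene, at 0 UMIs, is drawn by its upper limit alone.

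The share of barcodes with a UMI gave the same order at equal depth. After thinning each barcode to 2000 UMIs, Pou2af2 was detected in 37.3% of CD and 41.6% of HFD members, in 16.1% and 21.8% of IGHV11-2/IGKV14-126 barcodes, and in 3.46% and 5.60% of barcodes with neither. Zcwpw1 was detected in 59.1% and 47.8% of members, 29.0% and 27.7%, and 3.33% and 5.52%. In macrophage-marker barcodes no share exceeded 0.877%. Without thinning, 66.3% of CD and 80.3% of HFD members had a Pou2af2 UMI, and 78.2% and 72.5% a Zcwpw1 UMI. The median depths were 4659 and 13720 UMIs in the macrophage-marker barcodes.

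Within the members the levels varied from clonotype to clonotype. Pou2af2 ranged from 95.4 CPM (CD clonotype 7) to 453 CPM (CD clonotype 8) in CD and from 155 CPM (HFD clonotype 1) to 554 CPM (HFD clonotype 5) in HFD. Zcwpw1 was at 653 CPM in CD clonotype 1, 732 in clonotype 2, 844 in clonotype 3 and 843 in clonotype 4, but 147 CPM in clonotype 6 and 23.9 CPM (0.604 to 133) in clonotype 7. Clonotype 7 is the one with IGHJ2 printed above, and its value rests on 7 barcodes. In HFD, Zcwpw1 ranged from 253 CPM (clonotype 3) to 608 CPM (clonotype 2). The heavy sequence that HFD clonotypes 1 and 3 share had Zcwpw1 at 347 and 253 CPM with its different light chains.

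**Figure D3:**
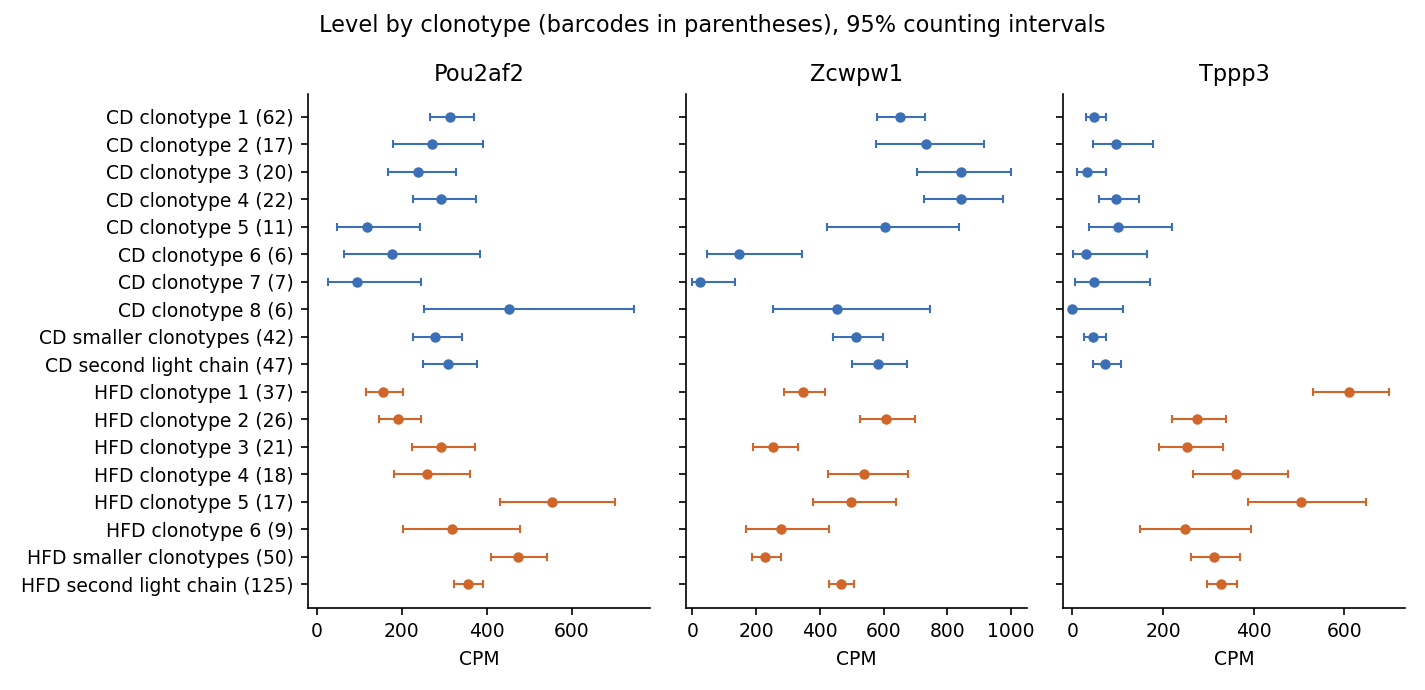
Levels of Pou2af2, Zcwpw1 and Tppp3 in CPM in each of the larger clonotypes, in all smaller clonotypes together and in the largest dual-light combination, with 95% intervals of counting error. Zcwpw1 is lowest in CD clonotype 7, at 23.9 CPM. For Tppp3 the point of every HFD clonotype drawn is above that of every CD clonotype (249 to 610 against 0 to 101 CPM), while some intervals overlap.

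Other POU2F genes did not share the pattern of Pou2af2. Pou2f3, its partner in tuft cells, gave 0 UMIs in CD members (interval up to 2.58 CPM) and 1 in HFD members. Pou2f2, the POU2F factor typical of B cells, had log2 ratios of -0.11 in CD and -0.11 in HFD against other paired barcodes. Pou2af1, the B cell coactivator OCA-B, was lower in members, at -0.59 and -0.47, and at -0.50 and -0.44 against IGHV11-2/IGKV14-126.

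Compared with all other paired barcodes of the same library, which include IGHV11-2/IGKV14-126 and B-2 cells, members were higher in B-1 markers and lower in B-2 markers. A ratio is the log2 of the CPM of summed UMIs in members over that in the others, and a gene was counted when it moved by 0.5 or more. With 20 UMIs or more over both sums, 12055 genes were measured in CD and 11663 in HFD. Of these, 12.1% were higher and 26.9% lower in CD, and 8.76% were higher and 26.6% lower in HFD. Of 11 B-1 markers, 9 were higher and 1 lower in CD (median 0.97) and 7 higher and 0 lower in HFD (median 0.53), beside medians over all genes of -0.13 and -0.16. Of 9 B-2 markers, 8 were lower in CD (median -3.11) and 9 in HFD (median -2.51). Against other paired barcodes on the B-1 side alone, the B-1 medians were 0.45 and 0.22 and the B-2 medians -1.51 and -1.11. That side was picked with these same marker lists and the members were not, so these medians depend in part on the choice.

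Within the B-1 list the values were uneven. Ctla4, an inhibitory receptor, was highest at 1.45 in CD and 1.61 in HFD. Zbtb32, a transcriptional repressor, was at 1.14 and 0.91, and Bhlhe41, a transcription factor needed for B-1a cells, at 1.17 and 0.76. Cd5, the surface protein that defines B-1a cells, was at 1.09 and 0.41, from 28 and 24 UMIs in the members. Itgam, the CD11b integrin chain, was the exception at -0.52 and -0.35. In the B-2 list Fcer2a (CD23, the low-affinity IgE receptor) was at -4.55 and -5.02, and Cr2 (complement receptor CD21) at -4.14 and -5.97.

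The genes with the highest ratios in both libraries were led by Gng13, a G protein gamma subunit, at 5.37 in CD and 3.40 in HFD. Pou2af2 was at 3.18 (3.0 to 3.35) and 2.46 (2.30 to 2.61), a 9.05-fold and 5.50-fold higher level. Zcwpw1 was at 3.80 (3.68 to 3.93) and 2.35 (2.21 to 2.49). Gnb3, a G protein beta subunit, was at 3.47 and 2.26. Cd300lf, an inhibitory receptor that binds membrane lipids, was at 3.17 and 2.22, from 93.5 and 74.0 CPM in members. The secreted peptide adrenomedullin (Adm) was at 2.87 and 1.65, and the large scaffold protein Ahnak2 at 3.08 and 2.0. Rab3b, a vesicle GTPase, was at 2.33 and 2.39. Adm and Ahnak2 were also higher with the other phosphatidylcholine receptor than with neither receptor. In members Adm was at 87.3 CPM in CD and 77.6 CPM (64.8 to 92.3) in HFD. With that other receptor it was at 44.3 and 69.9 CPM (60.4 to 80.4), and with neither at 8.56 and 16.9 CPM. For Adm in HFD those intervals overlapped. Ahnak2 was at 231 and 255 CPM in members, 104 and 189 CPM with that receptor, and 19.2 and 41.7 CPM with neither. Mgmt, a DNA repair protein, was at 2.0 and 1.99, Plk2, a polo-like kinase, at 2.44 and 1.76, Ms4a6c at 2.0 and 1.72, and Fgl2, a fibrinogen-like protein, at 2.24 and 1.65.

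Among the lowest ratios, Vpreb3, a chaperone of the immature receptor, had 1 UMI in CD members and 2 in HFD members, against 44.3 and 41.7 CPM in the others. Icosl, the ligand of ICOS, had 4 and 1 UMIs. Fcrl1, an Fc receptor-like protein, was at -3.30 and -3.03, Irf8, a transcription factor, at -2.55 and -2.80, Chchd10, a mitochondrial protein, at -3.74 and -4.14, and Pgap1, a GPI-anchor enzyme, at -2.59 and -2.52. Ratios resting on so few UMIs have wide intervals, -11.29 to -3.51 for Vpreb3 in CD.

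**Figure D4:**
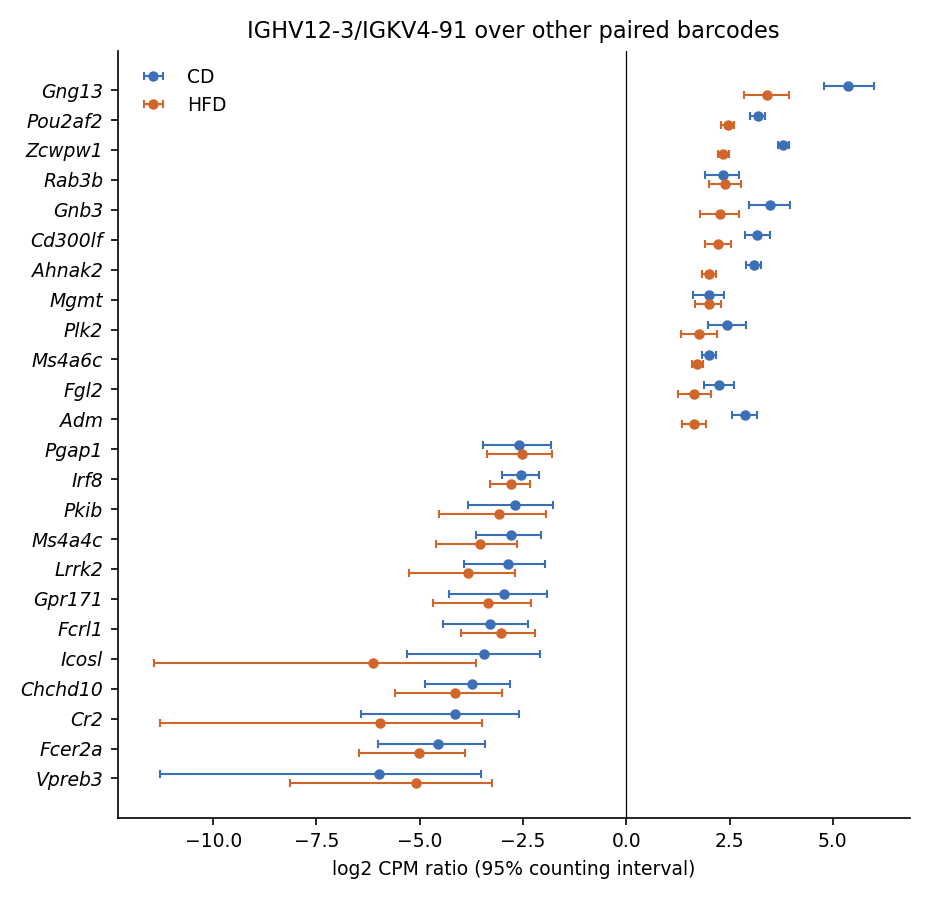
Log2 CPM ratio of members over other paired barcodes for the 24 named genes, with the CD and HFD libraries as separate points and 95% intervals of counting error. The 12 genes at the top lie above 0 and the 12 at the bottom below 0 in both libraries, with Gng13 highest and Vpreb3, Fcer2a, Cr2 and Icosl among the lowest.

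Genes of antigen receptor signalling were mostly close to the level of other barcodes. Of 26 measured, 1 was higher and 8 lower in CD (median -0.29), and 1 was higher and 7 lower in HFD (median -0.25). The shares that were lower are near those of all genes. The higher one was Nfatc1, a calcium-responsive transcription factor, at 0.97 and 0.78. Rasgrp3, an activator of Ras, was the lowest at -2.93 and -3.31, and Bank1, an adaptor, was at -0.82 and -0.77. Among genes that restrain the receptor, 8 of 23 were higher and 8 lower in CD, and 7 of 22 higher and 6 lower in HFD. Over all genes 12.1% and 8.76% were higher. This list went both ways, with medians of -0.23 and -0.16 and 14 genes below 0 in each library. Its higher genes included Lgals1, the lectin galectin, at 1.76 and 1.22, Ptpn22, a phosphatase, at 0.95 and 0.74, and the nuclear receptor Nr4a1 at 1.92 and 1.52. Complement and Fc receptors were lower for 8 of 12 genes in CD and 7 of 12 in HFD. Interferon response genes were lower for 12 of 28 in CD and 12 of 27 in HFD, where 26.9% and 26.6% of all genes were lower. MHC class II genes were lower for 3 and 4 of 11, near those shares.

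Against IGHV11-2/IGKV14-126, the most similar class, the differences were smaller. The members' sums are the same as in the previous comparison, and the IGHV11-2/IGKV14-126 barcodes are also among its others, so these are not separate evidence. Of 8839 genes measured in CD, 11.4% were higher and 12.7% lower by 0.5 or more, and of 8988 in HFD 10.3% were higher and 11.7% lower. B-1 markers had medians of 0.24 and 0.05, with 3 of 11 higher in CD and 1 of 11 in HFD. B-2 markers were lower for 4 of 7 in CD and 4 of 6 in HFD. B cell activation genes were higher for 7 of 19 in each library, with 1 lower, and immediate early genes for 3 of 17 in CD and 6 of 17 in HFD.

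The genes with the highest ratios included Nfkbid, an atypical IkB protein needed for B-1 cell development, at 1.93 in CD and 1.85 in HFD. Ets2, a transcription factor, was at 1.69 and 2.20. Marcksl1, an actin-binding protein, rested on 90.1 against 21.4 CPM in CD (2.07, 1.61 to 2.55) and 162 against 50.5 CPM in HFD (1.68, 1.38 to 1.99). Actn1, an actin cross-linker, was at 1.92 and 1.62, Plk2 at 1.40 and 2.58, Gng13 at 2.91 and 1.62, and Pou2af2 at 1.70 and 1.28. Zcwpw1 was at 1.32 (1.17 to 1.46) and 0.78 (0.62 to 0.94). Cd72, an inhibitory coreceptor of B cells, was at 2.36 and 1.46 here but at -0.25 and -0.58 against all other paired barcodes. Nr4a1, induced by antigen receptor signals, was at 2.83 and 1.28.

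For Nfkbid and Nr4a1 in CD, 1 clonotype had the highest point values. Nfkbid was at 440 CPM (356 to 537) in CD clonotype 4 and 16.8 to 241 CPM in the other numbered CD clonotypes. The interval of CD clonotype 8, at 241 CPM (104 to 476) from 8 UMIs, overlapped that of clonotype 4. Nr4a1 was at 170 CPM (119 to 234) in clonotype 4, from 18.2% of its barcodes, and at 0 to 35.4 CPM in the other numbered CD clonotypes. In HFD, Nfkbid ranged from 42.2 to 274 CPM and Nr4a1 from 42.2 to 114 CPM over the numbered clonotypes. For Nr4a1 the point values of the numbered HFD clonotypes lay above those of the CD clonotypes other than clonotype 4, but many intervals overlapped. In CD clonotype 8, 1 UMI gave 30.2 CPM (0.764 to 168), and HFD clonotype 3 was at 42.2 CPM (19.3 to 80.2). That wide CD clonotype 8 interval also overlapped the one of CD clonotype 4. For Nfkbid the ranges themselves overlapped. Clonotypes of 1 library are not replicates of a diet. Without CD clonotype 4, the CD ratios over IGHV11-2/IGKV14-126 were 1.09 (0.65 to 1.54) for Nfkbid and 1.88 (0.97 to 2.84) for Nr4a1.

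On the lower side against IGHV11-2/IGKV14-126 were Epcam, an adhesion protein, at -1.63 and -1.57, Lmo7 at -1.82 and -1.27, and Pglyrp1, a peptidoglycan-binding protein, at -1.10 and -1.48. Ltb, which encodes lymphotoxin beta, was at 179 against 443 CPM in CD and 315 against 561 CPM in HFD (-1.31 and -0.83). Slamf6, a self-ligand receptor, was at -1.68 and -0.93, Limd2 at -1.03 and -0.97, and Sapcd1 at -2.11 and -1.44. The macrophage list went opposite ways in this comparison, with 6 of 7 genes lower in CD (median -1.13) and 5 of 7 higher in HFD (median 0.88), and its part in the ratios was not tested. Without barcodes with 50 or more UMIs of other cell types the HFD median of that list was -0.04.

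Between diets, B-1 markers of the members differed by less than 0.5 and Tppp3 had the highest ratio. Of 8200 genes measured in members, 12.2% were higher and 12.4% lower in HFD by 0.5 or more, and the median was 0.00. None of 11 B-1 markers passed 0.5 in either direction (median 0.19), and Pou2af2 was at 0.16 (-0.03 to 0.36). Zcwpw1 was lower in HFD at -0.76 (-0.90 to -0.61). Tppp3, whose protein promotes tubulin polymerization, was at 57.2 CPM in CD and 375 CPM in HFD, a ratio of 2.71 (2.38 to 3.06) or 6.55-fold. It was detected in 115 HFD barcodes, no barcode held over 3.56% of its HFD UMIs, and the ratio was 2.73 without the barcodes with 50 or more UMIs of other cell types. The point values of the numbered clonotypes did not overlap, 0 to 101 CPM in CD and 249 to 610 CPM in HFD. Some intervals did, with CD clonotype 5 at 101 CPM (37 to 219) and HFD clonotype 6 at 249 CPM (148 to 394). Clonotypes of 1 library are not replicates of a diet. Tppp3 was also higher in HFD in other paired barcodes (2.04) and in IGHV11-2/IGKV14-126 barcodes (2.02).

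Tubb3 and Tubb2b, which encode beta tubulins, were at 2.29 (7.68 and 37.6 CPM) and 1.38 (20.9 and 54.6 CPM). Ptms, which encodes the nuclear protein parathymosin, was at 1.23, against 1.11 in other paired barcodes and 1.22 in IGHV11-2/IGKV14-126. Hmga2-ps1, a pseudogene, was at 1.64 and Dhrs1, a short-chain dehydrogenase, at 1.26. A pseudogene can share reads with its parent gene, and that value is uncertain. The histone gene H2ac24 was at 2.04, and 27.1% of its HFD UMIs lay in 1 barcode with 1227 UMIs of other cell types.

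Several of the other large ratios rested on single barcodes of mixed content. Retnla encodes a secreted protein typical of some macrophages. Of its 284 UMIs in CD, 249 (87.7%) were in 1 barcode with 409 UMIs of other cell types, and the ratio of -4.45 was -0.91 (-1.94 to 0.08) without barcodes with 50 or more. Lyz1, a lysozyme, had 81.4% of its CD and 70.7% of its HFD UMIs in 1 barcode each, and its ratio went from -1.60 to 0.28. Fn1, which encodes fibronectin, had 51.7% of its HFD UMIs in 1 barcode and went from 1.30 to 0.67. Ednrb, the endothelin receptor B, had 33.3% and went from 2.51 to 1.99 (0.15 to 4.43), and Il4i1, an amino acid oxidase, had 30% and went from 1.53 to 0.70.

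Cxcl13, a chemokine that attracts B cells, was at 195 CPM in CD and 20.6 CPM in HFD members, a ratio of -3.24, and at -2.77 without those barcodes. Of its UMIs, 33.9% in CD and 32.4% in HFD were in 1 barcode each, with 223 and 656 UMIs of other cell types. Cxcl13 was at 3406 and 485 CPM in macrophage-marker barcodes, at -3.89 between diets in other paired barcodes and at -6.11 in IGHV11-2/IGKV14-126 barcodes. Cd69, an early activation marker, was at -1.72 in members and -1.46 in other paired barcodes, with no barcode holding over 3.88% of its CD UMIs. Tagap, a GTPase-activating protein of lymphocytes, was at -1.52, Ankrd37 at -1.49, Ly6k at -1.68 and the chemokine Ccl5 at -1.45. For Gm35019, a predicted gene at -2.31, 70.0% of the 10 HFD UMIs were in 1 barcode.

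**Figure D5:**
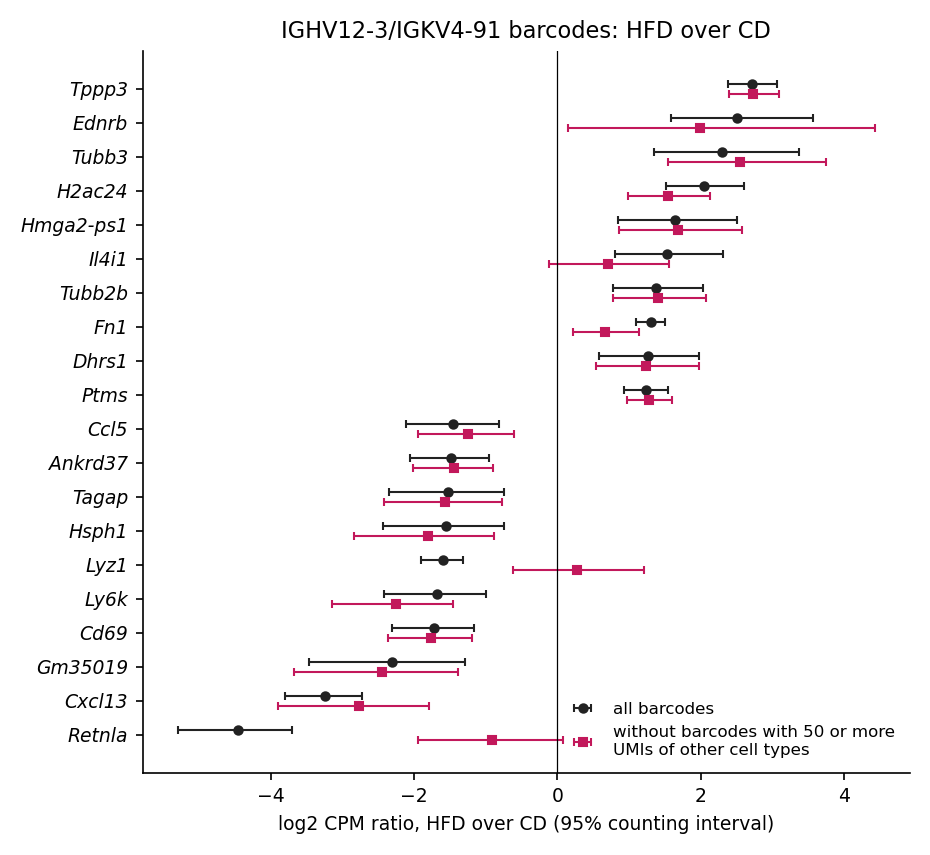
Log2 CPM ratio of HFD over CD in members for the 20 named genes, over all barcodes and without barcodes with 50 or more UMIs of other cell types, with 95% intervals of counting error. Tppp3 stays at 2.71 and 2.73, while Retnla goes from -4.45 to -0.91 and Lyz1 from -1.60 to 0.28.

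Part of the chaperone genes had lower levels in the HFD members. Beside 12.4% of all genes lower and 12.2% higher, in the heat shock list 6 of 11 genes were lower and 0 higher (median -0.53), and in the unfolded protein response list 10 of 19 were lower and 0 higher (median -0.51). Hspa8, the constitutive cytosolic chaperone, went from 1472 CPM in CD to 901 CPM in HFD (-0.71), and Hspa5, the chaperone of the endoplasmic reticulum, from 302 to 172 CPM (-0.81). Hsph1 was at -1.56, Dnajb1 at -1.05, Manf at -0.77, Creld2 at -0.88 and Xbp1, the transcription factor of the secretory response, at -0.88. For heat shock genes the median in other paired barcodes was -0.57 and in IGHV11-2/IGKV14-126 barcodes -0.58. For the unfolded protein response the medians there were -0.22 and -0.34, so the members' median was the lowest of the 3, a difference that was not tested.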

How the data were processed

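Droplet RNA libraries of peritoneal CD45+ cells gave the deposited counts of UMIs per gene and barcode and per receptor contig, without normalization. Per the file headers the matrices came from Cell Ranger 8.0.1, whereas Cell Ranger 6.0.1, Seurat 4.3.0 and the build mm39 are listed per the submitters' processing notes. Receptor and expression barcodes were joined within each diet. A barcode needed 300 genes or more and mitochondrial UMIs of 10% or less. No doublet caller was run, and barcodes of mixed content remain. UMIs were summed per library and receptor class and scaled to 1000000. Ratios carry exact conditional Poisson intervals, shares Clopper-Pearson intervals and differences of shares Newcombe intervals. Computation used Python 3.11.15, numpy 2.4.6, scipy 1.17.1, pandas 2.3.3 and matplotlib 3.10.9, and the ratio code was tested on simulated data. The depth is 193 CD and 178 HFD member profiles of median 5908 and 8393 UMIs.

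Named genes had 30 CPM or more in the higher sum, 50 UMIs over both sums and a UMI in at least 10% of barcodes of the higher side. Excluded were sex-linked, ribosomal protein and mitochondrial genes, receptor segments and immunoglobulin constant genes. The 12 highest and 12 lowest genes were taken over other paired barcodes and the 10 and 10 over IGHV11-2/IGKV14-126, by the smaller absolute ratio of both libraries, and the 10 and 10 between diets. List genes were added by a fixed rule. Members and lists were chosen with earlier results of these data known. The clonotype and single-barcode values were chosen after their values were seen.

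Alternatives changed the contig rule, clonotype definition, barcode filter, weighting, depth, scaling and reference. The alternatives without barcodes with 50 or more UMIs of other cell types, with dual-light barcodes as members, and without CD clonotype 4, were chosen after seeing the data.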

Additional observations from a re-analysis of the deposited data

Results flagged for a closer look

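3 genes had ratios of HFD over CD of opposite sign in the members and in IGHV11-2/IGKV14-126 barcodes, and the difference between the classes was not tested for any of them. Ednrb was at 2.51 in members and -1.75 (-2.29 to -1.23) in IGHV11-2/IGKV14-126 barcodes. Fn1 was at 1.30 and -0.89 (-1.02 to -0.76). Retnla was at -4.45 and 0.76 (0.53 to 0.99). Without barcodes with 50 or more UMIs of other cell types the members' values were 1.99 (0.15 to 4.43) for Ednrb, 0.67 (0.22 to 1.14) for Fn1 and -0.91 (-1.94 to 0.08) for Retnla. The IGHV11-2/IGKV14-126 values given here still include such barcodes. Macrophage markers in that class summed to 4933 CPM in CD and 1478 CPM in HFD, and their part in these ratios was not tested.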

How the results depend on the processing

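No paired analysis was possible because each diet has 1 library and no result comes from a test. Depth limits genes with few UMIs, of which Vpreb3 (1 UMI in CD members) is the extreme, and of 193 CD and 178 HFD members only 47 and 24 had under 3 UMIs of other cell types. No scaling moved the median gene by over 0.1. Without the filter and with IGHM alone the members stayed the same 193 CD and 178 HFD barcodes. Their ratios between diets could not move there, yet they are counted as unchanged. Of 1263 recomputed ratios of named genes 1088 stayed within their spread, 172 moved outside it and 3 reversed. These were H2ax over IGHV11-2/IGKV14-126 in HFD (0.49 without barcodes with 3 or more UMIs of other cell types) and, between diets, Lyz1 (0.28 without barcodes with 50 or more such UMIs, 2.10 without the largest clonotype). The macrophage median over IGHV11-2/IGKV14-126 in HFD was -0.04 without barcodes with 50 or more. The causes were not tested except where a setting leaves fewer barcodes or UMIs.

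Counts of genes past 1 log2 unit moved most. The number of genes past the naming filter also changed, so these counts cannot be read as shares. For HFD over CD it was 3792 at first, 1555 after thinning and 923 without barcodes with 3 or more UMIs of other cell types. Under CPM without receptor, mitochondrial and ribosomal protein genes it was 5333. Over IGHV11-2/IGKV14-126 it was 3703 in CD and 3694 in HFD, 2187 and 1994 after thinning, and 1963 and 1043 at the limit of 3. For HFD over CD, 22 higher and 31 lower became 35 and 48 at 800 genes and 5% mitochondrial UMIs, 36 and 50 with equal weight per barcode, 10 and 13 after thinning to 2000 UMIs, and 14 and 12 without barcodes with 3 or more UMIs of other cell types. The higher count was 39 under CPM without receptor, mitochondrial and ribosomal protein genes, 12 with dual-light barcodes as members and 58 without the largest clonotype. Over IGHV11-2/IGKV14-126, 56 higher in CD and 46 in HFD became 22 and 15 after thinning and 24 and 8 without barcodes with 3 or more such UMIs. The 44 lower in CD became 75 under the reduced CPM, 24 with dual-light barcodes, 29 without barcodes with 50 or more and 24 without those with 3 or more. The 9 lower in HFD became 16, 40, 15, 19, 16, 17 and 18 under the stricter filter, the reduced CPM, equal weight, thinning, the limits of 50 and of 3, and without the largest clonotype.

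Over other paired barcodes, 3909 genes passed the naming filter in CD and 3924 in HFD. In CD it was 2361 after thinning, and in HFD 5587 under the reduced CPM. Of these counts, 100 higher in CD became 64 against the B-1 side, 62 after thinning and 158 without barcodes with 3 or more such UMIs. The 129 lower became 276 under the last. In HFD, 68 higher became 42 against the B-1 side, 108 under the reduced CPM and 117 at the limit of 3, and 100 lower became 34, 163 and 433, and 174 with equal weight. The median of B-1 markers was 0.45 in CD and 0.22 in HFD against the B-1 side, and in HFD 0.89 with equal weight and 0.84 after thinning. The median of B-2 markers was -1.51 and -1.11 against the B-1 side, and in HFD -3.48 at the limit of 3.

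Admitting barcodes with several contigs gave member shares of 4.24% and 8.93% (difference 4.69 points), and in HFD a largest clonotype of 38.3%, IGHJ1 91.8%, IGKJ2 31.0%, IGKJ4 15.8% and IGKJ5 53.2%. By clonotypes the shares were 0.637% and 1.82% (difference 1.18). Counting each clonotype once gave IGHJ1 68.0% and 74.4%, IGKJ5 56.0% and 46.2%, IGKJ4 24% in CD and IGKJ2 28.2% in HFD. By heavy chain alone the largest HFD clonotype was 34.7%.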
